A study of Mus musculus with 2 samples.

Results

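The subunits of the mitochondrial respiratory chain and of ATP synthase were followed in the ovulating mouse ovary with and without ulipristal acetate. Members were chosen by gene symbol alone, as the nuclear genes named for complexes I to V (Nduf, Sdh, Uqcr, Cox and Atp5 families) together with Cyc1 and Cycs. This gave 81 of 18193 named genes, read by 165 probe sets. The rule uses no measured value. Wild type CD-1 mice aged 24 to 28 days were all given 5 IU of the gonadotropin PMSG, from pregnant mare serum, and, after a further 48 h, 5 IU of human chorionic gonadotropin (hCG). They received oil vehicle or ulipristal acetate 2 h after hCG. PMSG recruits growing follicles, hCG stands in for the ovulatory surge of luteinizing hormone, and ulipristal acetate, also named UPA and CDB in the labels, is a synthetic modulator of the progesterone receptor. Ovaries were collected at 11 h. The labels do not give the ulipristal dose, the injection from which this time was counted or the number of mice in a sample. There was 1 array per treatment, so no spread between animals exists. No test, standard deviation or p-value between treatments can be given, and every difference below is between these 2 samples of whole ovary.

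The respiratory chain passes electrons from NADH (complex I) and succinate (complex II) through complex III and cytochrome c to oxygen at complex IV. Complexes I, III and IV pump protons across the inner membrane, and complex V, the ATP synthase, uses the returning protons to make ATP. Most subunits are encoded in the nucleus, and those of the general housekeeping type are abundant in nearly every cell. In steroid-making cells of the ovary the same organelle holds the first step of progesterone synthesis.

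Signals are probe set intensities from the MAS5 algorithm, in arbitrary units, scaled so that the trimmed mean was 150.001 on both arrays. Signals under a floor of 7.17 were set to it, each gene was represented by its brightest probe set (by mean log2 signal), and a gene counted as measured where that mean corresponded to a signal of 30.8 or more. Of the 81 subunit genes 76 were measured, and 5 (Ndufb4, Cox4i2, Cox6a2, Cox7b2 and Cox8b) were too dim. Ratios are given on the log2 scale, ulipristal over vehicle, so that 0 means equal signals. Since probe sets bind with different strength, signals of different genes are not ranked against each other as levels.

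No measured subunit gene differed by 2-fold or more between the samples. As background, 3.34% of the 11364 measured genes reached 2-fold in the higher direction and 1.56% in the lower. The largest difference among the 76 was 1.53-fold, for Cox6b2. At 1.5-fold, 1 subunit gene was higher and 0 were lower, where 12.3% and 4.58% of all measured genes were. The ratios of the subunit genes ran from -0.49 to 0.62, with a median of -0.05 and a middle range (25th to 75th percentile) of -0.19 to 0.08. For all measured genes the median was 0.09 and the middle range -0.15 to 0.36. Ratios lay above 0 for 31 subunit genes and below 0 for 45, against 60% above 0 among all measured genes.

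Subunit genes were also bright, and ratios moved with brightness over the whole array. When measured genes were cut into 10 equal groups by mean signal (deciles), 61 of the 76 members lay in the brightest and 10 in the next. The median ratio of all measured genes went from 0.28 in the dimmest decile to -0.12 in the brightest. Within the brightest decile the subunit genes had a median of -0.09 and a middle range of -0.20 to 0.03, while all 1137 genes there had a median of -0.12 and a middle range of -0.28 to 0.05. Here 20 of 61 subunit genes lay above 0, a share of 32.8%, against 31.6% of all genes in that decile. No subunit gene there reached 1.5-fold in either direction, where 1.85% of all genes in the decile were that much higher and 5.54% that much lower. At 2-fold the shares of all genes in the decile were 0.176% higher and 1.58% lower. In the next decile the 10 subunit genes went the other way, with 8 above 0 (80%) and a median of 0.12, against 40.7% and -0.06 for all 1136 genes there. Measured against the median of its own decile, the ratio was higher for 48 subunit genes and lower for 28, with a median difference of 0.07. The sign of the set as a whole therefore turned with the reference used, from -0.05 as deposited to 0.07 against genes of like brightness.

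**Figure D1:**
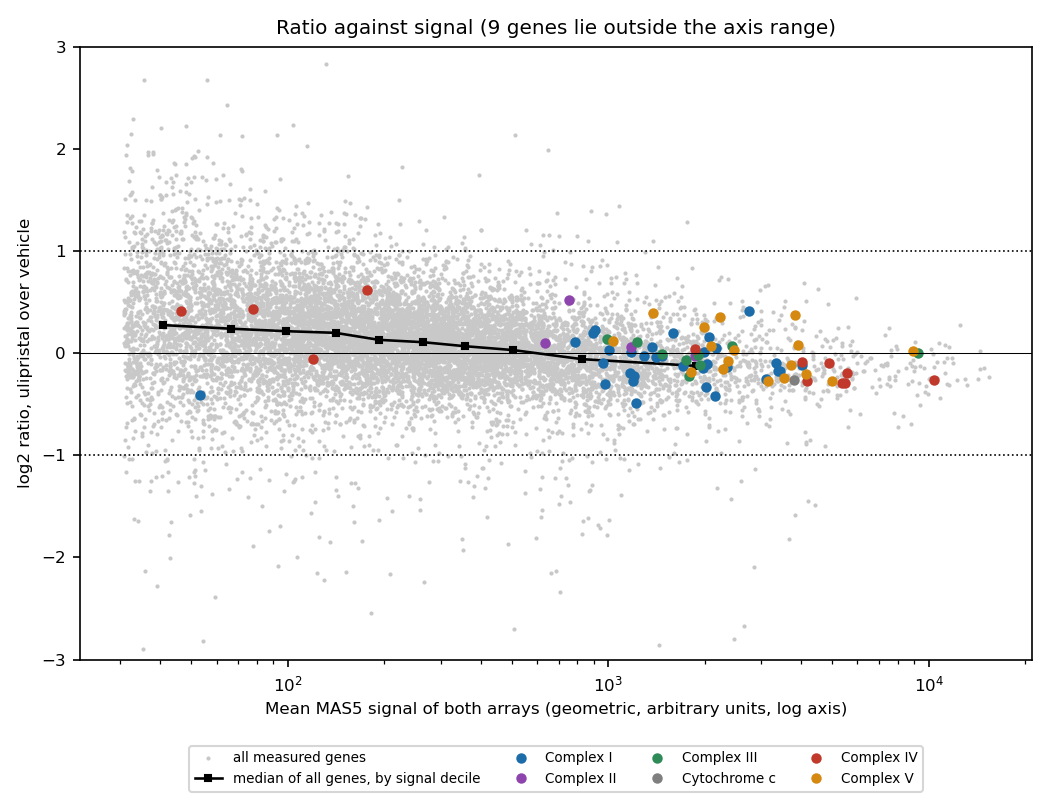
Log2 ratio (ulipristal over vehicle, y axis) against the mean signal of both arrays (x axis, log scale) for all measured genes (grey) and the subunit genes (coloured by complex); black squares mark the median of all genes in each signal decile and dotted lines mark 2-fold. The subunit genes lie between -0.49 and 0.62, mostly at the bright end, where the median of all genes is -0.12.

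Complex I, the NADH dehydrogenase, had 34 genes, of which 33 were measured. Of these 11 lay above 0 and 22 below, with a median ratio of -0.10. The share above 0 was 33.3%, against 34.4% of all genes of the same signal deciles. Against the median of its own decile the ratio was higher for 19 of the 33 genes and lower for 14. The catalytic core subunits, which carry the flavin and iron-sulfur centres or support quinone binding, went both ways. Ndufs1 read 844 with vehicle and 986 with ulipristal, a ratio of 0.22, and Ndufs3 read 1490 and 1708, a ratio of 0.20. Ndufv1, which binds NADH, read 1248 and 1091, and Ndufs7 read 1297 and 1111, ratios of -0.19 and -0.22. Ndufv2 was nearly equal at 1980 and 2000 on its brightest probe set, while its other measured probe sets read 1792 and 1433 (-0.32) and 1551 and 1351 (-0.20). Ndufs8 had a ratio of -0.33 on its brightest probe set, 2260 against 1800, yet its 6 probe sets gave ratios from -0.33 to 0.34. Ndufv1 and Ndufs7 also had a measured probe set above 0, at 0.14 and 0.26. By the brightest probe set, 3 of the 6 core genes measured were above 0 and 3 below.

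The accessory subunits of complex I, which surround and stabilise the core, held the lowest ratios of the whole set. Ndufb6, a membrane arm subunit, read 1443 with vehicle and 1028 with ulipristal, 1.40-fold lower, but its other probe set gave a ratio of only -0.06. Ndufa2 read 2484 and 1863, a ratio of -0.42 from a single probe set. Ndufb1 read 61.4 and 46.3, a ratio of -0.41 at low signal. Ndufa3 stood at the opposite end with 2385 and 3171, a ratio of 0.41, and its other measured probe set gave 0.12. The members with the highest signals differed little: Ndufa1 read 4198 and 3887, Ndufc1 3648 and 3234, Ndufc2 3604 and 3186, and Ndufa4, since then also placed with complex IV by structural work, 3456 and 3228. Of the Ndufa genes 9 of 12 were below 0, and of the Ndufb genes 7 of 10. In the brightest decile 778 of 1137 genes of any kind were below 0. Against the median of their own decile 9 of the 12 Ndufa genes were higher and 3 lower. Of the 10 Ndufb genes, 6 of them in the brightest decile, 4 were higher and 6 lower by that measure. Of the 18 complex I genes with several measured probe sets, 13 had probe sets on both sides of 0.

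Complex II, succinate dehydrogenase, also belongs to the citric acid cycle and is the smallest of the complexes. The flavoprotein Sdha went from 1152 on the vehicle array to 1205 on the ulipristal array, a ratio of 0.06. The iron-sulfur subunit Sdhb read 1886 and 1853, a ratio of -0.03. The membrane anchor Sdhd read 616 and 659. The other anchor, Sdhc, was the highest ratio among members outside the tissue-restricted isoforms, with 632 and 906, or 1.43-fold. Its second probe set, at 149 and 221, gave a similar ratio of 0.57. Sdhc lay above 0 under each of the 10 alternative ways of scaling, filtering or summarising the signals. The other measured probe sets of Sdha and Sdhd gave ratios of 0.51 and -0.39, so neither gene had a settled value beyond its brightest probe set.

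By the brightest probe sets, complex III, the cytochrome bc1 complex, had the narrowest range of the complexes with more than 4 genes. All 9 of its genes were measured, with ratios from -0.22 to 0.14 and a median of -0.01. The share above 0 was 44.4%, against 32.6% of all genes of the same signal deciles. Against the median of its own decile the ratio was higher for 8 genes and lower for 1, with a median difference of 0.11. Uqcrb, a small structural subunit, read 9241 and 9262. The catalytic heme subunit Cyc1 read 1916 and 1897, and the Rieske iron-sulfur protein Uqcrfs1 read 1477 and 1465, ratios of -0.01 for both. The core proteins differed in sign, Uqcrc1 with 946 and 1041 (0.14) and Uqcrc2 with 1925 and 1649 (-0.22), although another probe set of Uqcrc2 gave 0.03. Of the remaining subunits Uqcrh read 2380 and 2508, Uqcrq 2010 and 1852, Uqcr11 1791 and 1711 and Uqcr10 1184 and 1278. The other measured probe sets of Uqcrb, Uqcr10 and Uqcrh gave ratios of 0.25, 1.20 and -0.01.

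Cycs, somatic cytochrome c, carries electrons from complex III to complex IV and also triggers apoptosis when released from mitochondria. It read 4180 with vehicle and 3480 with ulipristal, 1.20-fold lower. Its 3 measured probe sets were all below 0, from -0.43 to -0.19. The ratio lay below 0 under all 10 alternatives, between -0.32 and -0.09.

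Complex IV, cytochrome c oxidase, was split between its general subunits and those restricted to certain tissues. Of the general subunits 8 of 9 measured genes lay below 0, with a median of -0.19 and a lowest value of -0.29. Most of them, 8 of 9, belong to the brightest decile, where the median of all genes was -0.12 and 31.6% lay above 0. Against the median of their own decile 6 of the 9 were lower and 3 higher. Cox6a1 read 11372 with vehicle and 9499 with ulipristal, Cox7a2 6053 and 4942, Cox6c 5930 and 4856, and Cox5a 4588 and 3801, each 1.20-fold to 1.22-fold lower. Cox6b1 read 5963 and 5224, Cox5b 5067 and 4744, and Cox4i1, which regulates the enzyme's response to ATP, 4155 and 3913. Cox8a was the member above 0, at 1841 and 1898. The second bright probe sets of Cox6a1 (4001 and 4116) and Cox6b1 (2567 and 2637) both gave 0.04, on the other side of 0 from the first. After quantile normalization or lowess centring 6 of the 9 were below 0, and their medians were -0.09 and -0.08.

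The tissue-restricted isoforms of complex IV replace a general subunit in particular cells, such as striated muscle (Cox6a2, Cox7a1 and Cox8b), lung and other oxygen-sensing tissue (Cox4i2) or the male germ line (Cox6b2, Cox7b2 and Cox8c). They were dim in these ovaries, and 3 of 7 were measured. Cox6b2 read 143 with vehicle and 219 with ulipristal, Cox7a1 66.8 and 90.2, and Cox8c 40.2 and 53.6. All 3 ratios were positive, 0.62, 0.43 and 0.42, at signals where the median of all genes was also positive (0.13 in the decile of Cox6b2, 0.24 in that of Cox7a1 and 0.28 in that of Cox8c). Among the unmeasured ones Cox8b read 4.25 and 21.7, which against the floor is at least 3.03-fold higher, and Cox4i2 read 5.70 and 16.2, at least 2.26-fold higher. Cox6a2 read 17.9 and 18.8, and Cox7b2 read 9.83 and 5.16. Striated muscle markers were at background on both arrays: 1 of 7, Acta1, was measured, and their summed signal was 99.2 with vehicle and 101 with ulipristal. Brown adipocyte markers summed to 149 and 159, with 1 of 5 measured (Dio2, 106 and 102) and Ucp1, the defining gene, below the floor on both arrays. Dio2 made up most of these sums. Among the unmeasured ones Cidea read 18.8 and 34.0, Ppargc1a 10.6 and 16.5, and Elovl3 8.86 and 5.19. Testis and sperm markers summed to 24.0 and 26.3, with 0 of 4 measured. White adipocyte markers summed to 334 and 634, with 3 of 4 measured and Lep below the floor on both arrays. The part of any of these cell types in the isoform values was not tested.

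Complex V makes ATP by rotation of a ring of c subunits against the catalytic head (F1), held by a peripheral stalk. All 17 of its genes were measured, with 9 above 0, 8 below and a median of 0.02. The share above 0 was 52.9%, against 32.1% of all genes of the same signal deciles. Against the median of its own decile the ratio was higher for 11 genes and lower for 6, with a median difference of 0.14. In the head, the catalytic beta subunit Atp5b read 3366 and 4374 on its single probe set, a ratio of 0.38. The alpha subunit Atp5a1 read 2425 and 2303, gamma (Atp5c1) 3874 and 3574, delta (Atp5d) 3470 and 2884 and epsilon (Atp5e) 2408 and 2168, all below 0 on the brightest probe set. For 3 of these 4 the sign rested on the probe set used: Atp5a1 also read 1990 and 2477 (0.32) and 149 and 172 (0.21), Atp5c1 85.6 and 99.8 (0.22), and Atp5d 1700 and 1780 (0.07). Atp5a1 and Atp5c1 kept their sign under 6 of 10 alternatives, whereas Atp5b kept it under all 10. The 3 genes of the c subunit, which encode the same mature protein behind different import signals, were all above 0. All 3 belong to the brightest decile, where 31.6% of all genes lay above 0. Atp5g1 read 1200 and 1580, Atp5g2 1825 and 2188 and Atp5g3 8861 and 8980, ratios of 0.40, 0.26 and 0.02. In the stalk Atp5o read 1972 and 2529 (0.36), Atp5j 3799 and 4016 (0.08), Atp5h 4450 and 3864 (-0.20) and Atp5pb 5500 and 4562 (-0.27). Second probe sets were opposite in sign for Atp5o (-0.18), Atp5h (0.16) and Atp5pb (0.22), and 8 of the 9 complex V genes with several measured probe sets had both signs. Small membrane subunits lay between -0.24 (Atp5j2, 3841 and 3254) and 0.12 (Atp5md, 994 and 1083).

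**Figure D2:**
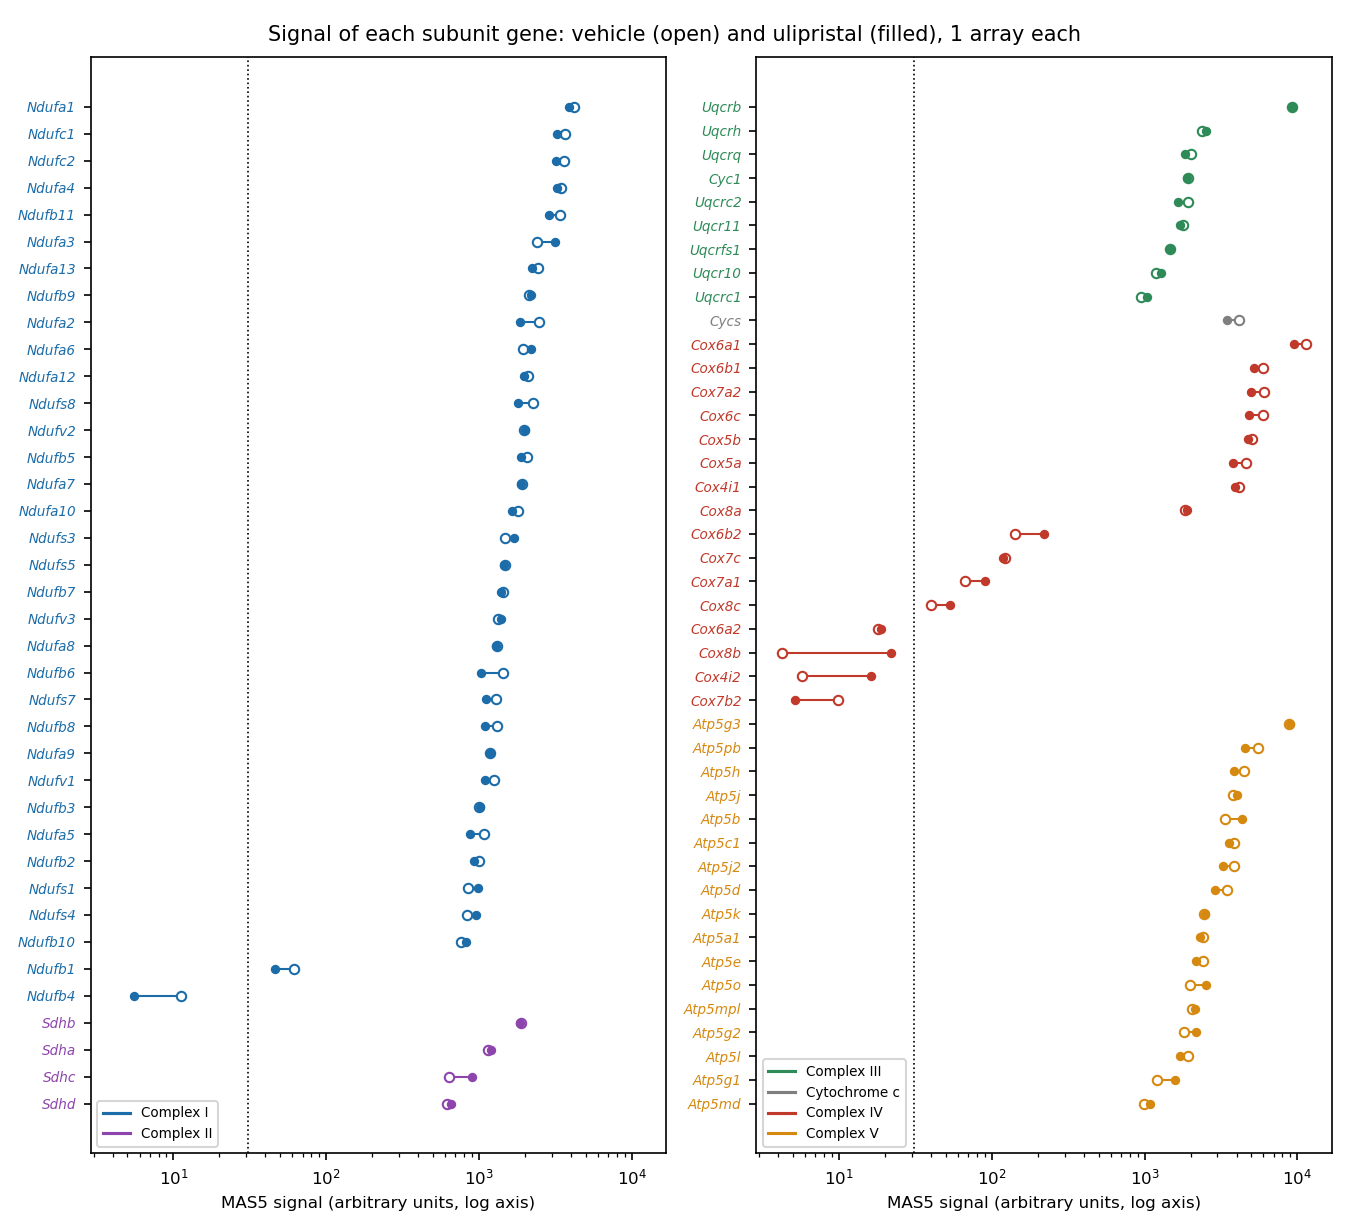
MAS5 signal (x axis, log scale, arbitrary units) of all 81 subunit genes on the vehicle array (open circles) and the ulipristal array (filled circles), grouped and coloured by complex, with a dotted line at the filter of 30.8. Most pairs nearly coincide, and the wide gaps belong to genes left of the dotted line, such as Cox8b and Cox4i2.

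Probe sets for the same subunit gene often disagreed in sign. For the 43 genes with more than 1 measured probe set, the median gap between the highest and lowest ratio was 0.33. Signs were mixed in 27 of these genes, all below 0 in 9 and all above 0 in 7. The dimmest probe set gave the higher ratio in 31 of 43 genes (72.1%), against 55.2% of the 4955 measured genes with several probe sets. Its median ratio was 0.04, and that of the brightest was -0.12. The gap passed 0.6 in 5 genes. For Uqcr10 the brightest probe set gave 0.11 and a dim one, 36.9 with vehicle and 85.0 with ulipristal, gave 1.20. For Cox7c, whose probe sets were dim throughout, the ratios were -0.06 (122 and 118) and 0.86 (27.1 and 49.0, the former under the filter). Ratios also differed with the letter in the probe set name. The 62 measured probe sets without a letter had a median of 0.08. The median was -0.14 for 37 marked a, -0.12 for 17 marked s and -0.13 for 25 marked x. These kinds were not matched for brightness, with which ratios moved over the whole array. When probe sets marked s or x were left out and those marked a were kept, the median of the subunit genes was 0.01, with 37 of 71 above 0.

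**Figure D3:**
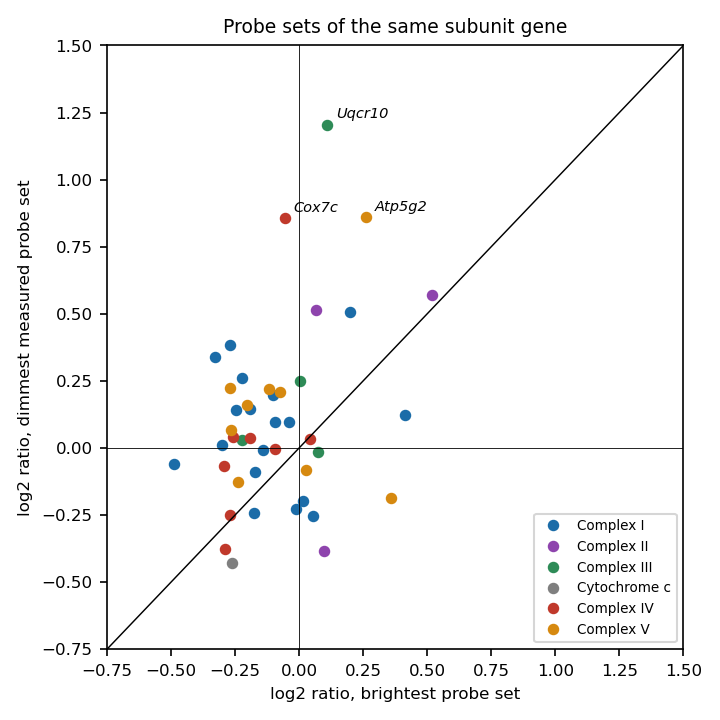
Log2 ratio of the dimmest measured probe set (y axis) against that of the brightest (x axis) for the 43 subunit genes with more than 1 measured probe set, coloured by complex; the diagonal marks equal ratios. Points lie above the diagonal for 31 genes, with Uqcr10 (0.11 and 1.20) the farthest from it.

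Promoters of subunit genes are known for sites of nuclear respiratory factor 1 (NRF1) and of the ETS family member GABP, which tie their transcription to mitochondrial biogenesis. RefSeq promoters (mouse build GRCm38.p6, 250 bases before to 50 after the gene start) were found for 66 of the 81 genes, as 71 sequences. The NRF1 motif GCATGCGC, searched on both strands, was present in 10 of these (14.1%) and in 2.71% of all 32851 promoters of the table. The ETS motif CCGGAAG was in 17 (23.9%, against 8.86% of all) and the YY1 motif AAGATGGCG in 6 (8.45%, against 1.40%). The SP1 motif GGGCGG was in 29 (40.8%, against 35.7%), the TATA box TATAAA in 9 (12.7%, against 13.6%), the ESRRA motif AAGGTCA in 8 (11.3%, against 4.72%) and its longer form TGACCTTTG in 0 (against 0.478%). The longer NRF1 palindrome, which contains the shorter motif on both strands, was in 4 (5.63%, against 0.971%), those of Atp5g2, Atp5k, Cox6a1 and Uqcrc1. A match describes letters and not binding.

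The median ratios of genes with and without a motif were close, except for the longer NRF1 palindrome. The 10 genes with the NRF1 motif had a median of -0.03 and the 53 measured genes with a promoter but no such motif -0.09. For the ETS motif the medians were -0.04 (17 genes) and -0.07 (46 genes), and for the YY1 motif -0.08 (6 genes) and -0.06 (57 genes). For the SP1 motif they were -0.06 (26 genes) and -0.06 (37 genes), and for the TATA box -0.03 (6 genes) and -0.07 (57 genes). The ESRRA motif AAGGTCA gave -0.03 (7 genes) and -0.06 (56 genes). The longer NRF1 palindrome gave 0.08 (4 genes) and -0.07 (59 genes), but these 4 genes ran from -0.26 (Cox6a1) to 0.26 (Atp5g2). The promoters of 3 general members with the NRF1 motif and of the tissue-restricted isoform Cox8b, which lacks it, are shown for comparison, 5′ to 3′ along the gene. Capitals mark the NRF1, ETS and TATA motifs above. Cox6a1 lies at chr5:115348909-115349208 (minus strand), Uqcrc1 at chr9:108936398-108936697 (plus strand), Cycs at chr6:50566520-50566819 (minus strand) and Cox8b at chr7:140900397-140900696 (minus strand).
Cox6a1: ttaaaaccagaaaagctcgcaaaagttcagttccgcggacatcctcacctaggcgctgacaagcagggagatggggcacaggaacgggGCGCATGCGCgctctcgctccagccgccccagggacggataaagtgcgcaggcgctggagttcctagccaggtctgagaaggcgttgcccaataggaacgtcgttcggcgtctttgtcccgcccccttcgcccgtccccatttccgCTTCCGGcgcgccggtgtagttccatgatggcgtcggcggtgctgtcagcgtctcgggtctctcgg
Uqcrc1: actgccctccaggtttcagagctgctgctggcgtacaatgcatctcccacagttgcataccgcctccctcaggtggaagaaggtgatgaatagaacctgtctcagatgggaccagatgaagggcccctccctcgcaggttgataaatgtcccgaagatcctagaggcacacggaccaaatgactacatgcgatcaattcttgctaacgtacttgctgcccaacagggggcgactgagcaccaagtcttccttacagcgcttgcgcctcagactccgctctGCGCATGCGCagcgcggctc
Cycs: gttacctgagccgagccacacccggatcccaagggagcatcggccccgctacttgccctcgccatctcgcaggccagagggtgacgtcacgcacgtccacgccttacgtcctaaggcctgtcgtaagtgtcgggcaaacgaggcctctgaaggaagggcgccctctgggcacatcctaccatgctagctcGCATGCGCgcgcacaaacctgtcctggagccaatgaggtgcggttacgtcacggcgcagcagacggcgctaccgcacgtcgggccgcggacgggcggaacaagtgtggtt
Cox8b: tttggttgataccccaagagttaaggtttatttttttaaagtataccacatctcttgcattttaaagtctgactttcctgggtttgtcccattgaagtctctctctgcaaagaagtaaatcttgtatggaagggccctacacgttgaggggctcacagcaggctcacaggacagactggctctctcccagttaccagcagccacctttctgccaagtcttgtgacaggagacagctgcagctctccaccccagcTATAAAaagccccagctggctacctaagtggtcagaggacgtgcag

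In Cox6a1 the capitals cover the NRF1 palindrome and 1 ETS motif on the opposite strand. Uqcrc1 holds the palindrome near the end of the window and Cycs 1 copy of the shorter form. In Cox8b only a TATA box is marked. The 3 genes with the NRF1 motif had ratios of -0.26, 0.14 and -0.26, so genes that share it lay on both sides of 0.

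Among measured genes, assembly factors, citric acid cycle genes and fatty acid oxidation genes each held ratios beyond the highest of the subunits (0.62), but none past 2-fold. Assembly factors, which build the complexes without staying in them, had a median of 0.19 over 41 measured genes, of which 5 passed 1.5-fold, 3 upward and 2 downward. Of all measured genes 12.3% passed 1.5-fold upward and 4.58% downward. Only 2 of the 41 lay in the brightest decile. The share above 0 was 63.4%, against 61.2% of all genes of the same signal deciles, and the median difference from the decile medians was 0.05. Timmdc1, which acts in complex I assembly, had the highest ratio at 122 and 241 (0.98), and Ttc19, a complex III factor, the lowest at 146 and 76.0 (-0.94), although the 3 measured probe sets of Ttc19 ran from -0.94 to 0.27. Pyruvate dehydrogenase and citric acid cycle genes had a median of 0.02 over 18 genes. Ogdh, a subunit of the oxoglutarate dehydrogenase complex, read 371 and 652 (0.81), and malate dehydrogenase Mdh2 read 5323 and 3782 (-0.49). Fatty acid oxidation genes lay above 0 in 14 of 15 cases (93.3%) with a median of 0.20. All measured genes lay above 0 in 60% of cases, and those of the same signal deciles in 42.1%. The list was led by Hadha, the trifunctional protein's alpha subunit, at 403 and 687 (0.77).

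Regulators of mitochondrial biogenesis had a median of -0.06 over 17 genes, 8 above 0 and 9 below. The share above 0 was 47.1%, against 58.6% of all genes of the same signal deciles. Nrf1 read 102 and 71.0 (-0.52) on its brightest probe set, but its 4 measured probe sets ran from -0.52 to 1.01 and left its direction unsettled. Gabpa read 807 and 660 (-0.29) and the mitochondrial DNA polymerase gene Polg 220 and 290 (0.40, with probe sets from -0.23 to 0.40), while the coactivator Ppargc1a was not measured. Carriers, pores and import proteins had a median of -0.16 over 16 genes, from Tomm20 (5448 and 3801) to Tomm40 (298 and 433), both parts of the outer membrane import complex. The 6 measured probe sets of Tomm20 ran from -0.71 to 0.21. Against the medians of their own deciles 5 of these 16 genes were higher and 11 lower, with a median difference of -0.04. Genes of oxidant defence and uncoupling had a median of 0.07 over 9 genes, with the transhydrogenase Nnt highest at 834 and 1262 (0.60). The mitochondrial electron chain of steroid synthesis showed Fdx1, the ferredoxin that feeds electrons to steroid-making enzymes, at 15601 and 13058 (-0.26). Cyp11a1, which cleaves the side chain of cholesterol, read 10451 and 11177 (0.10), and Star, which brings cholesterol into the mitochondrion, 5733 and 5016 (-0.19, with probe sets from -0.19 to 0.19). Mitochondrial ribosomal proteins had a median of -0.01 over 76 genes, from -0.34 to 0.52. Cytosolic ribosomal proteins had a median of -0.15 over 46 genes, and Rpl39 (76.1 and 34.0) was the member past 2-fold. Against the medians of their own deciles 18 of the 46 were higher and 28 lower, with a median difference of -0.05. Subunits encoded in mitochondrial DNA were not analysed here.

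**Figure D4:**
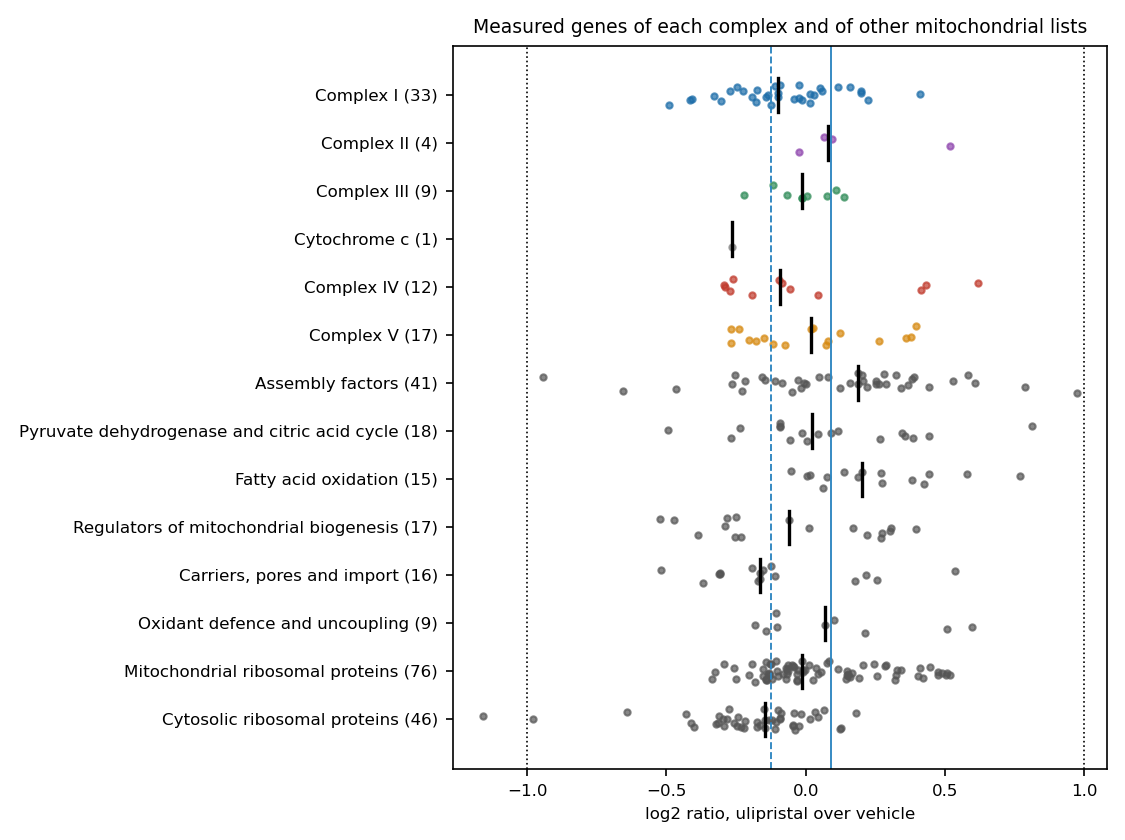
Log2 ratio (x axis) of every measured gene of each complex (coloured) and of other mitochondrial and ribosomal lists (grey), with the number of genes in brackets and a black bar at each median; the solid blue line is the median of all measured genes (0.09), the dashed blue line that of the brightest decile (-0.12), and dotted lines mark 2-fold. Subunit medians run from -0.26 (cytochrome c, 1 gene) to 0.08 (complex II).

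Relatives that the name pattern leaves out were examined last. Ndufa4l2, a paralog of Ndufa4 known as a hypoxia-induced gene, was the only one of 6 past 2-fold, at 28.6 with vehicle and 76.9 with ulipristal. The vehicle signal was under the filter, so the gene counted as measured through the ulipristal array. Of the 324 measured genes with a vehicle signal under the filter 146 (45.1%) were at least 2-fold higher. The supercomplex factor Cox7a2l read 1008 and 903, the acyl carrier protein Ndufab1 1540 and 1696, and the ATP synthase inhibitor Atpif1 2175 and 1836. Uqcc1 and Cox17, also counted among the assembly factors, had ratios of 0.79 and -0.26. Probe sets that name a subunit together with another gene were not used, and the 5 of these 9 that were bright enough gave ratios from -0.09 to 0.20.

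Both arrays carried markers of granulosa cells, theca and oocytes of the labelled ovary, and also markers of oviduct and cilia. Summed signals with vehicle and ulipristal were 12812 and 16141 for granulosa cell markers (7 measured), 12610 and 14476 for theca (4), and 1899 and 2160 for oocytes (8). They were 11913 and 13443 for smooth muscle (5), 3825 and 6122 for oviduct and cilia (6), 797 and 926 for endothelium (4), and 640 and 819 for macrophages (4). Such sums follow their brightest markers, as with Ovgp1 (3641 and 5642) for oviduct and Cyp11a1 (10451 and 11177) for theca. Median ratios of measured markers were 0.24 for granulosa cells, 0.38 for theca, 0.14 for oocytes and 0.42 for smooth muscle. Those of oviduct and cilia, endothelium and macrophages were 1.29, 0.59 and 0.22. With vehicle, Foxj1, Ccdc39 and Tie1 read 19.1, 27.4 and 24.8, under the filter, so they counted as measured through the ulipristal array. Of all measured genes with a vehicle signal under the filter, 45.1% were at least 2-fold higher. The median ratio of all genes in the dimmest decile was 0.28. Signs were mixed for granulosa cells (Inhbb 1.44, Amh -0.69), oocytes (Zp3 0.51, Bmp15 -0.06) and endothelium (Pecam1 1.01, Cdh5 -0.24). Poly-A spike controls were 1.49-fold and 18S ribosomal RNA 2.41-fold brighter on the vehicle array. The part of these differences in the subunit ratios was not tested, and in whole ovary fewer cells of a type and less RNA per cell cannot be told apart.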

How the data were processed

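Ovarian RNA was measured on 2 Affymetrix mouse arrays, 1 per treatment, grouped by the treatment label. The authors deposited linear intensity values, 1 per probe set and array. Per the submitters' processing notes the tools were Affymetrix Expression Console (version 1) and MAS5, with no roles stated. A genome build for the array is not stated in these sources. Depth has no meaning for arrays, and their number limits the precision.

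Probe sets naming 1 gene in the platform annotation were used (34945 of 45101). All 81 member symbols matched the RefSeq gene table. The floor of 7.17 and the filter of 30.8 are the 25th percentile of signals and the 50th of mean log2 signals, without controls. The steps were tested on simulated data. The text names the 4 brightest and the 3 highest and lowest ratios of each complex, isoform groups, Cycs, Cyc1, genes whose probe sets differ by over 1, and some of the extremes of other lists. Any other gene is named with its value in view. The set of subunits was picked as a topic, and the lists and thresholds were chosen, with earlier results of these data known. Alternatives covered centring, floor, filter, pseudocount, probe set choice and fold. Python 3.11.15, numpy 2.4.6, pandas 2.3.3, scipy 1.17.1, statsmodels 0.14.6 and matplotlib 3.10.9 were used.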

Additional observations from a re-analysis of the deposited data

Results flagged for a closer look

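Among subunit probe sets that give none of the 76 measured gene values, 4 were at least 2-fold higher with ulipristal than with vehicle after signals under 7.17 were raised to that floor, and 1 (Ndufa3, 24.0 and 11.5) was at least 2-fold lower. Cox4i2 and Cox8b, whose values among the unmeasured isoforms rest on these probe sets, read 16.2 against 5.70 and 21.7 against 4.25. A pair of dim probe sets of Uqcr10 read 85.0 against 36.9 and 19.4 against 1.19, the latter also below the filter, while the brightest probe set of that gene had a ratio of 0.11. These are single readings near background, without a replicate.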

How the results depend on the processing

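No paired analysis was possible because each treatment has 1 array, and no array could be left out. The count of subunit genes at least 2-fold higher was 0 under 9 of the 10 other ways of processing. Without a filter it was 2 of 81 (Cox8b and Cox4i2), and at 1.5-fold it was 1. The count at least 2-fold lower was 0 throughout, at 1.5-fold too. Medians moved by 0.1 or more from their values of -0.05 (all subunits), -0.10 (complex I), 0.08 (II), -0.09 (IV) and 0.02 (V) as follows. Quantile normalization gave 0.067 for all subunits, 0.057 for complex I, 0.014 for complex IV and 0.166 for complex V. Lowess centring gave 0.022 for complex I and 0.135 for complex V. The filter at the 75th percentile gave -0.19 for complex IV, over 9 genes. Without s and x probe sets, complex II had 0.30 and complex V 0.12. Complex IV without its tissue-restricted isoforms, an alternative chosen after seeing the data, also had -0.19 over 9 genes. Counting Ndufa4 with complex IV moved the medians of complexes I and IV by less than 0.1, as did leaving the isoforms out of the median of all subunits. Of all genes past 2-fold, 68.2% were higher; this was 60.3% after median centring, 57.3% with quantile-normalized signals and 56.2% with lowess-centred ratios. The share fell under that of lower genes, to 36.5%, with the filter at the 75th percentile (58 higher, 101 lower) and to 35.5% with a pseudocount of 50 (54 higher, 98 lower). Of the 76 subunit genes 21 lay above 0 and 24 below under every way of processing in which they were measured, and 31 changed sign. Low signals limit the 4 unmeasured isoforms of complex IV, which were under the filter.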
